A study of Mus musculus with 6 samples.

Results

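Imprinted genes are expressed mainly from the copy inherited from one parent, and 35 well-known ones were listed. Of these, 34 had a named row in the deposited array table, found through the Entrez gene ID, out of 24010 named genes in all, and Zrsr1 was not analysed here. The tissue was the dorsal pancreatic bud of mouse embryos at stage E11.5, the outgrowth of the foregut from which much of the pancreas forms. Buds were pooled by 10 and kept in culture for 24 h in 1 of 3 ways: control buds received 0.1% DMSO, and the other groups received 500 nM I-BET151 or 100 nM JQ1. Both compounds occupy the bromodomains of BET proteins, which read acetylated histones. There were 2 pools and so 2 arrays per group, 6 arrays in all, and whether these pools stem from separate litters is not stated in the labels.

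Parent-of-origin expression is set by DNA methylation laid down at control regions in egg or sperm and kept through the divisions of the embryo. Imprinted genes lie mostly in clusters, in which 1 control region can govern several neighbours, often through a long noncoding RNA or a boundary that steers enhancers. Many act on growth: paternally expressed genes such as Igf2 tend to promote it, and maternally expressed genes such as Cdkn1c tend to limit it. In the pancreas several of them act on progenitor division or on insulin release. The arrays measure total RNA of a gene and do not separate the parental copies, so no statement on imprinting itself can be drawn from them.

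Few of the 34 imprinted genes were called as different between inhibitor-treated and control buds, with only 2 arrays per group. Sgce and Asb4, neighbours in one cluster, and Phlda2, a limiter of placental growth, fell, and Nnat, which encodes neuronatin, rose, when the mean of both inhibitors was set against control. These 4 of 34 genes (11.76%) were called with limma at a Benjamini-Hochberg adjusted p under 0.05, where 4.92% of all 24010 genes were called. Of the members 1 rose, where 1.59% of all genes rose, and 3 fell, where 3.33% did. The higher share among members was not kept when genes below the median intensity were left out, where 28 members remained. Of these 2 rose and 3 fell for the mean of both inhibitors, beside 1208 and 1481 of 12005 genes. The called share of members was then below that of all genes. An unadjusted limma p under 0.05 was found for 11 members (32.4%), beside 22.7% of all genes. Among genes that act on growth, Igf2, H19, Igf2r, Cdkn1c, Mest, Plagl1, Grb10, Peg3 and Peg10 had log2 changes between -0.07 and 0.18 under either inhibitor. None of these was called. Larger changes under I-BET151 and JQ1 were those of Phlda2 (-0.39 and -0.51), Dlk1 (-0.14 and -0.34) and Zdbf2 (0.22 and 0.30). Dlk1 and Zdbf2 were not called.

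Under each inhibitor alone the counts were smaller. Under JQ1, 2 of 34 members were called, Nnat upward and Sgce downward. Of all genes 3.8% were called under JQ1, 1.13% upward and 2.67% downward, so the members' share of 5.88% lay near that of all genes. Under I-BET151 limma called none of the 34 members, while 1.13% of all genes were called in either direction, and 8 members (23.5%) had an unadjusted p under 0.05, near the 18.9% of all genes that did. The 2 inhibitor comparisons share the control arrays and are not independent of each other.

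The median log2 change of the members was 0.04 under I-BET151 and 0.06 under JQ1, beside 0.003 and 0.02 for all genes. All 4 inhibitor arrays lay above both control arrays for 11 members (32.4%), where 14.4% of all genes were placed so. They lay below both control arrays for 7 members (20.6%), where 14.9% of all genes did. For the other 16 members the arrays overlapped. With each array centred on its median, the median log2 change of all genes moved from 0.02 to 0.08 for the mean of both inhibitors, and the split of called genes moved from 382 upward and 799 downward to 881 and 857. Under JQ1 alone it moved from 272 and 640 to 664 and 727. With this centring or with quantile normalization repeated, the log2 changes of Igf2, H19, Cd81, Mirg, Peg3, Zim1 and Gnas, none of them called, turned sign in at least 1 comparison with control.

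**Figure D1:**
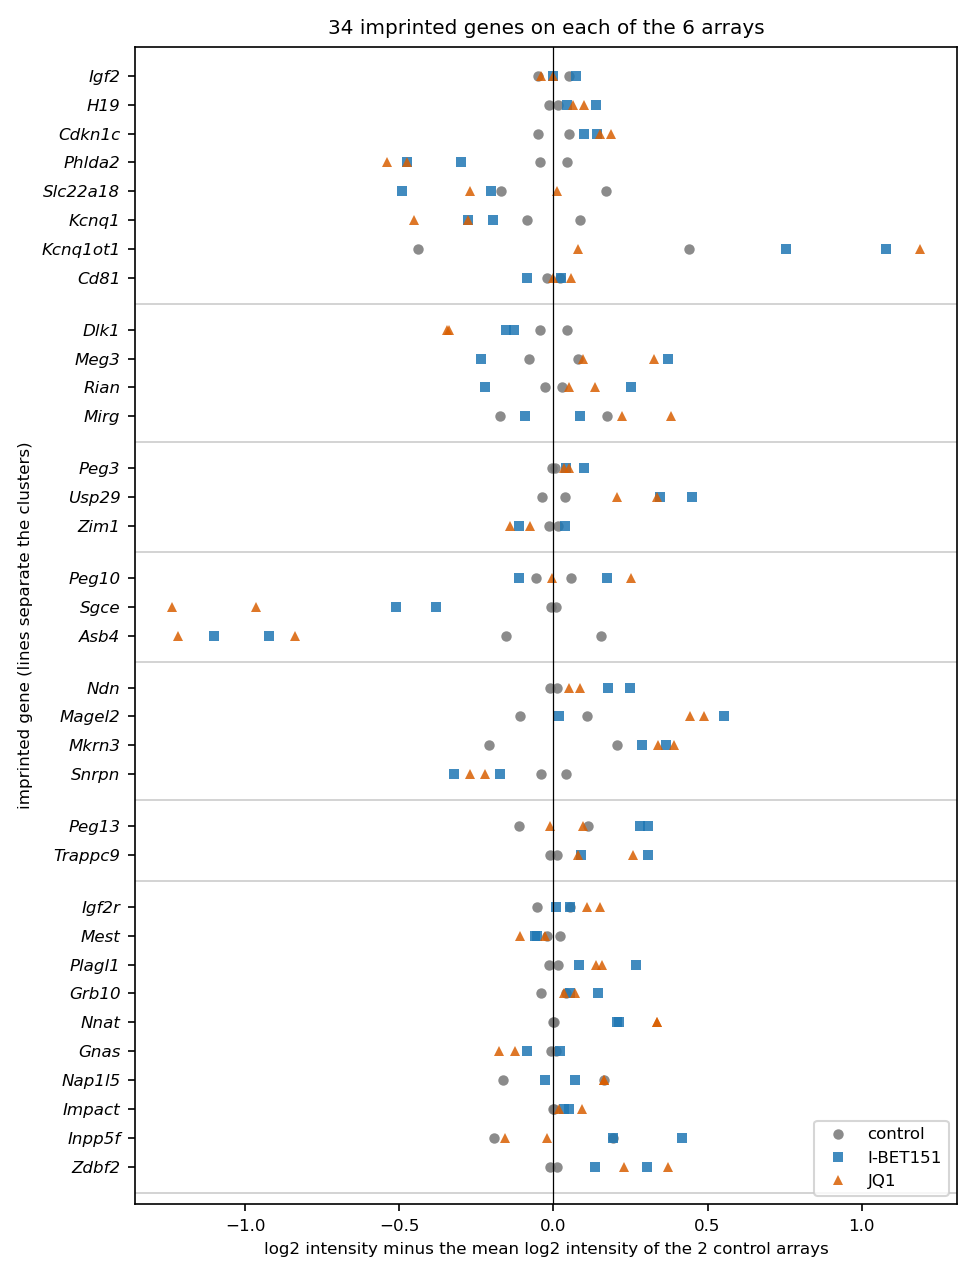
Each row is 1 imprinted gene and each point 1 array, placed by its log2 intensity minus the mean of the 2 control arrays, with control, I-BET151 and JQ1 arrays in different symbols and lines between clusters, the last block holding genes outside them. Asb4 lies far to the left in all 4 inhibitor arrays, and Sgce far to the left with JQ1 and less so with I-BET151. Kcnq1ot1 is spread widely in the control and JQ1 groups, and most other genes lie close to 0.

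Among the 34 listed genes, the largest falls were those of Sgce and Asb4, in the cluster with Peg10. Sgce encodes epsilon-sarcoglycan, a membrane glycoprotein whose loss causes a movement disorder in humans. Its intensity was 320 and 316 on the control arrays, 223 and 244 with I-BET151, and 163 and 135 with JQ1. The 3 groups did not overlap, and JQ1 gave the lowest values. The log2 change was -1.10 ± 0.11 (SE, n = 2 per group) under JQ1 (2.14-fold lower, limma adjusted p = 0.0217). Under I-BET151 it was -0.45 ± 0.11 and was not called (adjusted p = 0.143).

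Asb4 encodes an ankyrin repeat protein of ubiquitin ligase complexes and is expressed from the maternal copy. It was measured at 1164 and 940 on the control arrays, 552 and 488 with I-BET151, and 585 and 450 with JQ1. Both inhibitor groups lay well below the controls and overlapped each other. The mean of both inhibitors was 2.03-fold lower than control, a log2 change of -1.02 ± 0.15 (limma adjusted p = 0.0390). Under each inhibitor alone the change was as large (-1.01 and -1.03) but missed the threshold, with adjusted p of 0.0861 and 0.0550.

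Peg10, a gene derived from a retrotransposon and needed for the placenta, sits head to head with Sgce, and both are expressed from the paternal copy. Its arrays read 1129 and 1221 in control, 1325 and 1086 with I-BET151, and 1170 and 1399 with JQ1. These values overlapped in all groups. The log2 changes were 0.03 (95% interval -0.34 to 0.40) and 0.12 (-0.24 to 0.49), and Peg10 was not called in any setting tried. The interval of Sgce under JQ1, -1.39 to -0.81, did not overlap with that of Peg10, but the difference between these genes was not tested.

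Other genes along the same stretch were also lower. In chromosomal order, the region from 5 measured protein-coding genes before the cluster to 5 after it held 19 genes with a row. For the mean of both inhibitors 7 of the 19 (36.8%) fell and none rose, where 3.33% of all genes fell. For JQ1 6 fell, where 2.67% of all genes did. Besides Sgce and Asb4, the genes that fell for the mean were Casd1 and Pon2, which are imprinted in some tissues, and the flanking genes Tfpi2, Gng11 and Slc25a13. Casd1, a sialic acid acetyltransferase gene directly beside Sgce, read 998 and 1019 in control, 854 and 840 with I-BET151, and 775 and 736 with JQ1, with a log2 change under JQ1 of -0.42 ± 0.06 (limma adjusted p = 0.0390).

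Pon2, a paraoxonase gene, changed by -0.40 ± 0.06 under JQ1, and its relative Pon3 stood at -0.47 ± 0.09 without a call (limma adjusted p = 0.0437 and 0.0659). The falls were therefore not limited to members of the list, nor did they run without a gap, since Peg10 and Ppp1r9a lie between called genes. The calls of Casd1 and Pon2 for the mean of both inhibitors were lost with each array centred on its median, and that of Pon2 with quantile normalization repeated. The region was singled out after its values were seen.

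**Figure D2:**
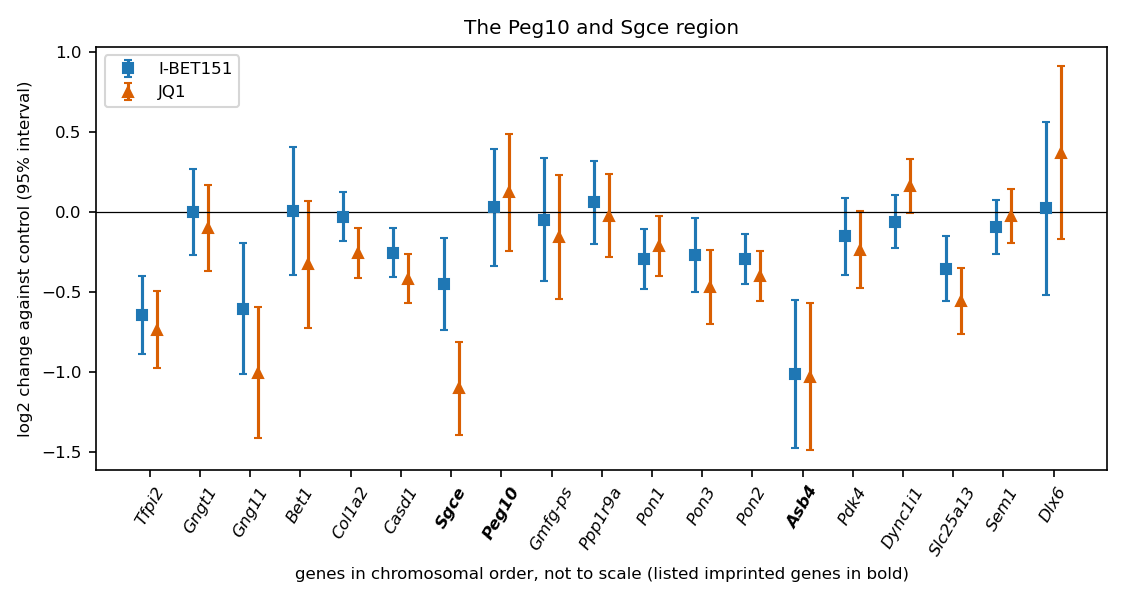
The genes around Peg10 and Sgce are placed in chromosomal order, not to scale, with the log2 change against control and its 95% interval for I-BET151 and JQ1 and the listed imprinted genes in bold. Sgce and Asb4 lie near -1 under JQ1, Peg10 between them lies close to 0, and Gng11 and Tfpi2 at the left edge are also low.

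The 250 bases upstream of an annotated Asb4 start site are shown because Asb4 had the largest change of the 34 genes for the mean of both inhibitors among those called. They lie at chr6:5383136-5383385 on the plus strand of GRCm38.p6, from RefSeq, and hold 4 CpG and 40.8% GC, with none of the motifs searched. A second sequence is the stretch upstream of Nnat, the member that rose. It lies at chr2:157559828-157560077 on the plus strand, holds 12 CpG and 54.8% GC, and has 1 match to CCATNTT, a core of the YY1 motif, shown in capitals.
Asb4 upstream: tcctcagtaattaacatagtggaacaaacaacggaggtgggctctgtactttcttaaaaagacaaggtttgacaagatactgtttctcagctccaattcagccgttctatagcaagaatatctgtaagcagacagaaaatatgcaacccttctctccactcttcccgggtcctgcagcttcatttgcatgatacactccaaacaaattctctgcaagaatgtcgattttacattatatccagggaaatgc
Nnat upstream: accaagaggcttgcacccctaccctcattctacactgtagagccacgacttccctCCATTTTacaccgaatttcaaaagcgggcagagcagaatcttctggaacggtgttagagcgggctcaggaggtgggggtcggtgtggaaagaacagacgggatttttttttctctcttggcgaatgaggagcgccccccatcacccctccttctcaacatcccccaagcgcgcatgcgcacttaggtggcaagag

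Of the 34 members, 26 had a promoter window in the RefSeq table, 41 windows of 250 bases before and 50 bases after a start site. The letters TGCCGC, the core bound by the imprint-keeping factor ZFP57, stood on either strand before the start site in 17.07% of the members' windows and in 8.68% of 32851 windows of all genes. CCATNTT was found in 12.2% and 12.43%, and TATAAA in 19.51% and 12.37%. The median number of CpG before the start site was 10 in the members' windows and 6 in all windows. Zdbf2, Mest, Nap1l5, Zim1, Plagl1 and Meg3 held TGCCGC, and none of these 6 genes was called. Windows of one gene can overlap, so these shares are descriptions.

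Nnat was the member that rose. Neuronatin is a small protein of the endoplasmic reticulum linked to insulin processing in beta cells. It read 2556 and 2553 on the control arrays, 2959 and 2949 with I-BET151, and 3227 and 3224 with JQ1, so the groups did not overlap and replicates lay very close. The log2 change was 0.34 ± 0.05 under JQ1 (1.26-fold higher, limma adjusted p = 0.0466) and 0.21 ± 0.05 under I-BET151 (adjusted p = 0.143). For the mean of both inhibitors the adjusted p was 0.0470. This call lay at the edge of the threshold and was lost in 4 of 10 other settings, among them repeated quantile normalization and a robust variance prior.

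Blcap, the gene within which Nnat lies, stood at 0.28 ± 0.10 for the mean of both inhibitors and was not called (limma adjusted p = 0.210). The sources used here do not say which probes or strand make up a row, so genes that overlap, such as Nnat and Blcap, Peg13 and Trappc9, or Kcnq1ot1 and Kcnq1, may share signal. Tgm2, a transglutaminase gene among the flanking genes of Nnat, fell under JQ1, by 0.95 on the log2 scale.

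Lists of 7 growth-promoting and 5 growth-limiting genes are too short to set their called shares against that of all genes. Of 7 growth-promoting genes, 0 were called in any comparison by limma, with 2 at an unadjusted p under 0.05 for the mean of both inhibitors, where 4.92% of all genes were called and 22.7% had such a p. Of 5 growth-limiting genes, 1 was called, Phlda2, and only for the mean of both, where 1 of the 5 had an unadjusted p under 0.05. The median log2 change of the growth-promoting genes was 0.04 under each inhibitor, and that of the growth-limiting genes 0.09 and 0.08. The first median turned to -0.030 under JQ1 with repeated quantile normalization. The difference between the medians was not tested.

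Among the growth-promoting genes, Igf2 encodes the main growth factor of the embryo. Its arrays read 3528 and 3285 in control, 3579 and 3401 with I-BET151, and 3400 and 3311 with JQ1. All groups overlapped, and the 95% intervals of the log2 change, -0.14 to 0.21 and -0.20 to 0.16, leave room for changes of up to about that size. Peg3, a zinc finger gene, stood at 0.07 and 0.04, and Mest, which encodes a hydrolase-like enzyme, at -0.06 and -0.07, given here and in the next sentences as log2 changes under I-BET151 and JQ1. Plagl1, a zinc finger factor that activates other imprinted genes, stood at 0.18 and 0.15. Zdbf2, a zinc finger gene that promotes growth after birth, stood at 0.22 and 0.30 and had all 4 inhibitor arrays above both controls.

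Dlk1, a membrane protein related to Notch ligands, had the lowest log2 change of the 7 growth-promoting genes under each inhibitor. It read 1963 and 1848 on the control arrays, 1743 and 1711 with I-BET151, and 1507 and 1498 with JQ1. The 3 groups did not overlap. The log2 change was -0.14 ± 0.06 under I-BET151 and -0.34 ± 0.06 under JQ1, and the latter missed the threshold (limma adjusted p = 0.0566). Under JQ1 it was called in 6 of 11 other settings.

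Among the growth-limiting genes, H19 is the maternally expressed noncoding RNA beside Igf2. It read 5701 and 5587 in control, 5820 and 6204 with I-BET151, and 5902 and 6039 with JQ1, all 4 inhibitor arrays above both controls. Its log2 changes were 0.09 and 0.08, and neither was called. Under JQ1 the value was -0.0049 with repeated quantile normalization. Cdkn1c, a cyclin-dependent kinase inhibitor that lets pancreatic progenitors leave the cell cycle, read 1330 and 1240 in control, 1416 and 1375 with I-BET151, and 1425 and 1462 with JQ1. These arrays also did not overlap with the controls, with log2 changes of 0.12 and 0.17 (limma adjusted p = 0.408 and 0.229). Igf2r, the receptor that clears IGF2, stood at 0.03 and 0.13, and Grb10, an adaptor that dampens insulin and IGF receptors, at 0.10 and 0.05.

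Phlda2 encodes a small phosphoinositide-binding protein that restrains placental growth. It read 31 and 33 in control, 23 and 26 with I-BET151, and 22 and 23 with JQ1. All 4 inhibitor arrays lay below both controls. The mean of both inhibitors differed by -0.45 ± 0.07 (1.36-fold lower, limma adjusted p = 0.0470). The row is dim, and values rounded to whole numbers leave coarse steps there. The call was lost with an intensity trend in the variance prior and was held in 6 of 8 other settings.

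**Figure D3:**
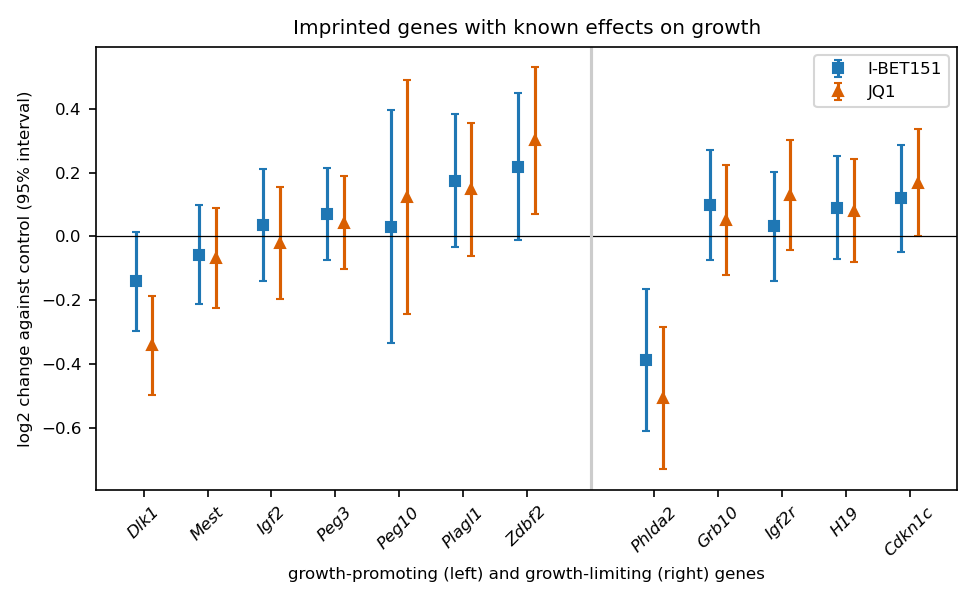
Points give the log2 change against control with its 95% interval for I-BET151 and JQ1, for 7 growth-promoting genes on the left and 5 growth-limiting genes on the right, each ordered by the mean of both inhibitors. Each group holds 1 gene whose log2 changes lie below those of its other genes, Dlk1 and Phlda2, and the other genes lie between -0.07 and 0.30. The interval of Dlk1 under I-BET151 runs from -0.298 to 0.015.

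The other genes of the Igf2 and Kcnq1 cluster varied in both directions. Kcnq1ot1, the paternal noncoding RNA that silences its neighbours, had the widest spread of the 34 genes. It read 76 and 140 in control, 218 and 174 with I-BET151, and 235 and 109 with JQ1. The I-BET151 arrays lay above both controls and the JQ1 arrays overlapped with them, and the log2 changes of 0.92 ± 0.47 and 0.63 ± 0.47 were not called (limma adjusted p = 0.393 and 0.529). Kcnq1, a potassium channel gene, stood at -0.24 and -0.37 with all 4 inhibitor arrays below both controls, the transporter gene Slc22a18 at -0.35 and -0.13, and the tetraspanin gene Cd81 at -0.03 and 0.03.

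Ascl2, an imprinted transcription factor gene of the placenta in the same cluster, fell for the mean of both inhibitors by 0.44 on the log2 scale (limma adjusted p = 0.0398). Lsp1, a flanking gene expressed in leukocytes and endothelium, fell under both inhibitors by 0.63 and 0.81. Of the 8 listed members of the cluster, Phlda2 alone was called, and only for the mean of both.

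In the Dlk1 and Meg3 cluster none of the 4 listed members was called. Meg3, a maternally expressed long noncoding RNA, read 1716 and 1537 in control, 2099 and 1380 with I-BET151, and 2038 and 1735 with JQ1. The 2 I-BET151 arrays lay on either side of both controls. Its log2 changes were 0.07 ± 0.22 and 0.21 ± 0.22, and Rian and Mirg, which carry small nucleolar RNAs and microRNAs, stood at 0.01 and 0.09, and at -0.003 and 0.30. None of these was called, nor was any of the 52 microRNA rows within the cluster, by limma for either inhibitor or their mean, where 3, 6 and 6 of these rows had an unadjusted p under 0.05 for I-BET151, JQ1 and their mean, beside 18.9%, 21.6% and 22.7% of all genes. Many of these rows were dim, with mean intensities from 6.5 to 459.7 and a median of 38.9, beside 56.4 for all genes. Their lack of a call therefore says little about change.

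Rtl1, a paternally expressed gene derived from a retrotransposon in that cluster, fell. It was not in the list of 35 and read 111 and 144 in control, 87 and 81 with I-BET151, and 44 and 56 with JQ1. The groups did not overlap. The log2 change was -1.35 ± 0.18 under JQ1 (limma adjusted p = 0.0343) and -0.59 ± 0.18 under I-BET151 (adjusted p = 0.187). An antisense transcript covers Rtl1, and its signal cannot be told apart here.

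In the Peg3 cluster, Usp29, a ubiquitin protease gene that starts beside Peg3 on the other strand, read 121 and 115 in control, 161 and 150 with I-BET151, and 149 and 136 with JQ1. All 4 inhibitor arrays lay above both controls. The log2 changes were 0.40 ± 0.08 and 0.27 ± 0.08, and the mean of both inhibitors, 0.33 ± 0.07, missed the threshold (limma adjusted p = 0.0684) but was called in 6 of 10 other settings. Peg3 itself stood at 0.07 and 0.04, and the latter turned to -0.0298 with repeated quantile normalization. Zim1, a maternally expressed zinc finger gene there, stood at -0.04 and -0.11. The 96 bases that separate the annotated Peg3 and Usp29 genes, at chr7:6730463-6730558 on the plus strand of GRCm38.p6, are shown because these neighbours share them. They hold 3 CpG and 60.4% GC and none of the motifs searched, and this stretch was chosen after the values were seen.
Peg3 to Usp29: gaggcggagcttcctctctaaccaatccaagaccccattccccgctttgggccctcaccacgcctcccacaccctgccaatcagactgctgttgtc

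**Figure D4:**
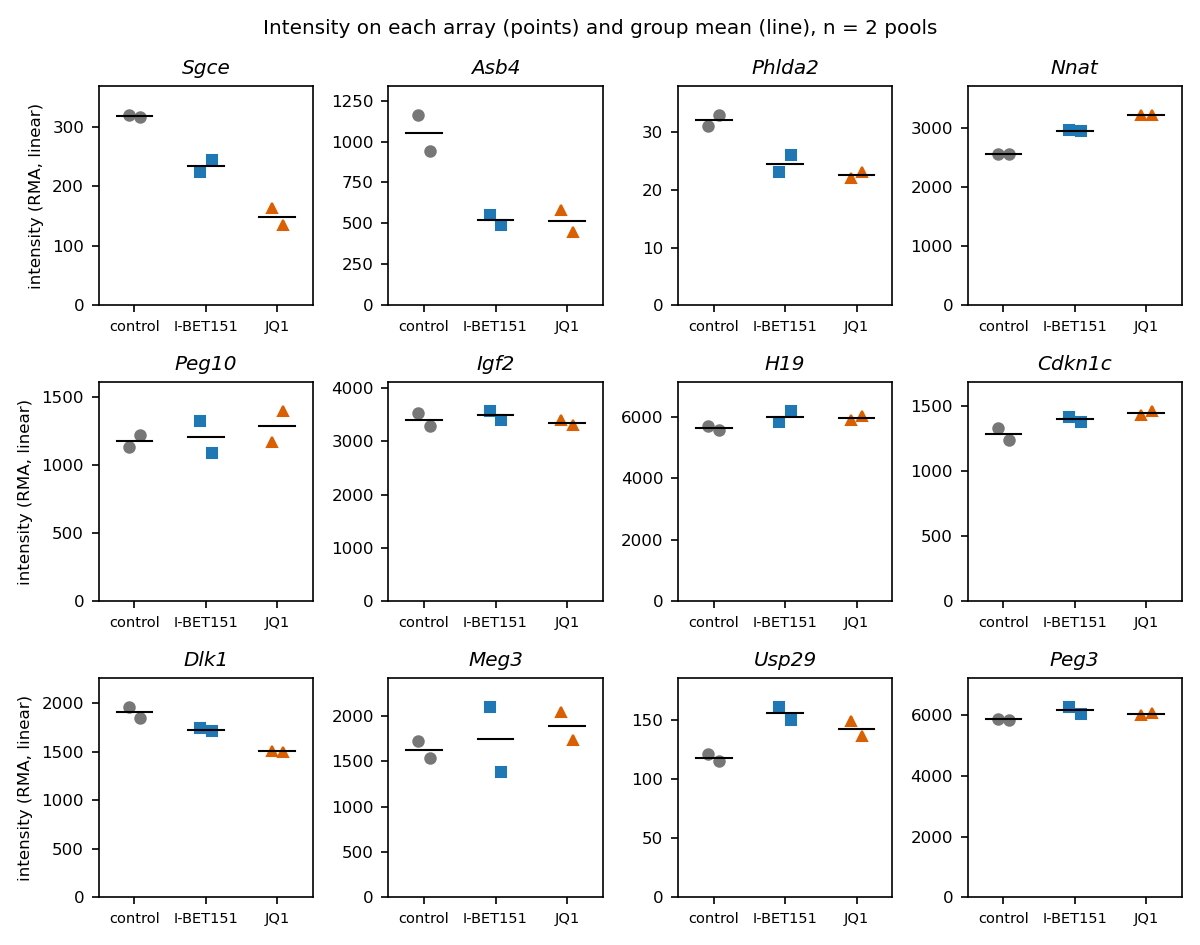
Points are the RMA intensities of 12 imprinted genes on each array, on linear axes that start at 0, and lines are group means of 2 pools. Asb4 stands far below control under both inhibitors, and Sgce far below it under JQ1 and less so under I-BET151. Nnat stands above control, and Igf2, H19 and Peg10 stay near it.

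The remaining members gave no call. In the Snrpn cluster, Ndn and Magel2, which encode MAGE family proteins, stood at 0.21 and 0.07 and at 0.29 and 0.47, and the ubiquitin ligase gene Mkrn3 at 0.33 and 0.37. Snrpn, which encodes a splicing protein, went the other way at -0.25 under each inhibitor, with all 4 inhibitor arrays below both controls. Its row and those of Magel2 and Mkrn3 lay under 100, where the 95% interval was wider: its median width to either side was 0.29 for 10 such members, beside 0.17 for 16 members with a control mean of 1000 or more.

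Peg13, a noncoding RNA, and Trappc9, a vesicle trafficking gene that contains it, stood at 0.29 and 0.04 and at 0.20 and 0.17. Gnas, the stimulatory G protein gene whose isoforms are imprinted in opposite ways, stood at -0.03 and -0.15, and one row cannot separate the isoforms. Nap1l5, a nucleosome assembly gene, stood at 0.02 and 0.16, Impact, a regulator of translation under stress, at 0.04 and 0.06, and the phosphoinositide phosphatase gene Inpp5f at 0.31 and -0.09. By parent of origin, the median log2 change was 0.12 and 0.10 for 18 paternally expressed members and -0.003 and 0.08 for 11 maternally expressed ones. Another 5 depend on isoform or tissue and had medians of 0.10 and 0.03.

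JQ1 and I-BET151 were given at different doses, so a difference between them does not compare the compounds at matched dose. In the direct contrast limma called 0 of 24010 genes, a share of 0%, while 1610 genes, of which 2 were members, had an unadjusted p under 0.05. These members were Sgce, lower under JQ1 by 0.65 on the log2 scale (95% interval -0.94 to -0.36, adjusted p = 0.718), and Dlk1, lower by 0.20 (-0.36 to -0.05, adjusted p = 0.720). For Asb4 the difference was -0.02 with an interval of -0.48 to 0.44.

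Other imprinted genes were read from a wider list. Of 42 such genes 39 had a row, of which 1 fell under I-BET151, 5 fell under JQ1 and 6 fell for the mean of both inhibitors, and none rose. In these comparisons 0.87%, 2.67% and 3.33% of all genes fell. The median log2 change of the 39 genes was -0.09 for the mean of both, beside 0.02 for all genes. Ddc had the smallest p. It encodes the decarboxylase that makes dopamine and serotonin, lies beside Grb10, and read 356 and 341 in control, 138 and 167 with I-BET151, and 144 and 122 with JQ1. It fell under both inhibitors, by 1.20 ± 0.13 and 1.39 ± 0.13 on the log2 scale (limma adjusted p = 0.0449 and 0.0198), while Grb10 was not called.

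Beside Plagl1, which was not called, Phactr2, an imprinted phosphatase regulator gene, and the flanking genes Ltv1, Fuca2 and Adat2 fell under JQ1 by 0.51 to 0.61 on the log2 scale. The calls of Ltv1 and Phactr2 for the mean of both inhibitors were lost with each array centred on its median. Slc45a4, flanking Peg13, rose for the mean of both. Over the 9 regions, of 90 flanking genes that are not in either imprinted list, 1 rose and 8 fell for the mean of both inhibitors. That is 10.0% of them, close to the share of 11.76% among the listed members, where 4.92% of all genes were called. This share depends on the regions taken. Of the falls 3 lay around Peg10 and Sgce and 1 beside the Igf2 and H19 cluster. Another 3 lay around Plagl1 and 1 around Nnat, in regions of single genes that were added to those of the clusters.

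Of 26 genes that set or keep imprints, 1 was called, under I-BET151, under JQ1 and for their mean, where 1.13%, 3.8% and 4.92% of all genes were called. Kdm1b, the histone demethylase needed for maternal imprints in the egg, rose, from 207 and 200 in control to 305 and 310 under I-BET151 and to 324 and 333 under JQ1. Its log2 changes were 0.60 ± 0.06 and 0.69 ± 0.06 (limma adjusted p = 0.0432 and 0.0161). The DNA methylation genes Uhrf1 and Dnmt3a stood at -0.33 and -0.35 and at -0.12 and -0.23, and Arid4b at 0.21 and 0.20, none of them called.

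Among 20 genes of the IGF pathway, through which Igf2, Igf2r and Grb10 act, 2 fell under JQ1 and for the mean of both inhibitors. The shares of all genes that fell there were 2.67% and 3.33%. Igfbp3, which encodes an IGF carrier, read 1596 and 1716 in control, 852 and 1044 with I-BET151, and 741 and 810 with JQ1. The inhibitor arrays were all far below the controls, and the log2 change under JQ1 was -1.10 ± 0.12 (limma adjusted p = 0.0249). Stc1, an inhibitor of the protease that releases IGFs from their carriers, fell by 0.74 ± 0.09 under JQ1 (adjusted p = 0.0277). The receptor gene Igf1r stood at 0.38 under each inhibitor and the adaptor gene Irs1 at 0.38 and 0.30, without a call.

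The bud is a mixture, and fewer cells of a type cannot be told apart from less RNA per cell. Markers of the pancreatic epithelium were present on every array, with a summed intensity of 16309 to 16486 in control, 15768 to 16691 under I-BET151 and 15099 to 15981 under JQ1. Of 18 such markers 1 rose, Mnx1, and 1 fell, Krt18, under JQ1 and for the mean of both inhibitors. Mesenchyme markers summed to 21421 to 21890, 19303 to 19438 and 18996 to 19126 in these groups, and 6 of 26 fell for the mean of both inhibitors. Endothelial markers summed to 8537 to 8787, 6489 to 6932 and 6179 to 6267, and 7 of 19 fell. Neural crest and neuronal markers summed to 2906 to 3038, 1791 to 2051 and 1849 to 1921, where 3 of 12 fell and 1 rose. Liver markers summed to 5526 to 5802, 3416 to 5108 and 3407 to 5516, and 0 of 13 were called by limma, with 3 at an unadjusted p under 0.05. The sums of the macrophage, mesothelium and erythroid lists overlapped with control: 1 of 13 macrophage markers fell, 2 of 10 mesothelium markers rose and 1 fell, and limma called 0 of 8 erythroid markers, with 2 at an unadjusted p under 0.05, for the mean of both. Genes of G2 and M phase summed to 26382 to 28479 in control, 22444 to 22865 under I-BET151 and 22712 to 22920 under JQ1. All 29 measured had a negative log2 change under each inhibitor, 26 had all 4 inhibitor arrays below both controls, and 3 fell for the mean of both. Beside these lists, 1.59% of all genes rose and 3.33% fell for the mean of both. All 4 inhibitor arrays lay below both controls for 14.9% of all genes. No gene of these lists lay at the lowest value of the table on any array. The part of these lists in the falls of Sgce, Asb4, Phlda2, Rtl1 and Ddc was not tested. As a check of the treatment, Hexim1, a usual marker of BET inhibition, rose by 0.67 and 1.00 on the log2 scale.

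The calls rest on having all 6 arrays. With any of CTRL 1 and 2, I-BET151 1 and 2 or JQ1 1 and 2 left out, one at a time, 0 members and 0 of 24010 genes were called by limma in any comparison. When genes under the median intensity were dropped as well, Sgce and Asb4 were called in 6 of 6 such fits for JQ1 and for the mean of both inhibitors, with log2 changes of -1.24 to -0.96 and -1.22 to -0.84 under JQ1. Nnat was called in 3 of 6 for the mean of both, being lost without CTRL 1, CTRL 2 or JQ1 1. Phlda2 lay below the median and was not tested there. Casd1, Pon2, Ltv1 and Phactr2 were lost without CTRL 1 or CTRL 2, Slc25a13 without CTRL 1 and Slc45a4 without CTRL 2, among the neighbours called for the mean of both.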

How the data were processed

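The authors deposited 1 table of intensities on a linear scale, normalized with RMA per the submitters' processing notes and rounded to whole numbers from 5 upward. The version of RMA, the probe summary and the genome build are not given in the sources used here. Of 24972 rows, 24014 had 1 gene symbol in the platform annotation. For 4 repeated symbols only the brightest row was used, which left 24010 genes, and 958 rows stayed unnamed. The median intensity was 54 to 57 per array, and arrays of a group correlated at 0.9952 to 0.9963. The log2 intensities were fitted with limma 3.58.1 in R 4.3.3 over all 6 arrays, with no filter and no pseudocount (residual df 3, prior df 1.76). P-values were adjusted by Benjamini-Hochberg over 24010 genes, and "rose" and "fell" mean an adjusted p under 0.05. These p-values set the difference between groups against the spread between pools of a group, estimated over the 3 groups and moderated across genes. This spread may be partly technical, and 2 arrays per group limit the precision. The script was tested on simulated data.

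All listed members with a row are named. Values per array are given for those called, those with a mean log2 change of at least 0.5 and 5 chosen growth genes, and a few near the threshold were added after their values were seen. From each other list the 4 genes with the smallest p are named, and of flanking genes those called, 5 genes per side in the RefSeq GRCm38.p6 table, which gave gene order, and promoters. Regions around the single genes Grb10, Plagl1 and Nnat were added. The members and lists were chosen with earlier results of these data known. Alternatives covered scaling, filters, the variance prior, rounding, a replicate block and each array left out.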

Additional observations from a re-analysis of the deposited data

How the results depend on the processing

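No called member reversed its direction. The imprinted genes called for I-BET151 against control, 0 in the fit reported, were 1 without the dimmest 25% of genes, with each array centred on its median, with an intensity trend, with a robust prior and with rounding dithered, and 3 without genes below the median intensity. In the settings with 1 member called, 130 to 223 of all genes tested rose and 297 to 575 fell. Without genes below the median intensity, 596 of 12005 genes rose and 842 fell, beside 1 and 2 of 28 members. The called share of members was below that of all genes there. Those called for JQ1 against control, 2 as reported, were 5 with log2 of intensity plus 16 and without the dimmest 25%, 4 without genes below the median intensity, with quantile normalization repeated and with an intensity trend, and 0 with only the arrays of the groups compared. Over all genes, the 272 that rose and 640 that fell became 614 and 1001 with log2 of intensity plus 16, and 605 and 1123 of 18047 without the dimmest 25%. They became 394 and 714 with quantile normalization repeated, 534 and 843 with an intensity trend, and 0 with only the arrays compared. Without genes below the median, 1042 rose and 1331 fell of 12005, and the called share of the 28 members was below that of all genes. The cause of these moves was not tested. Same-numbered arrays of different groups showed no shared deviation from their group means over genes (correlations -0.016 to -0.04). Whether same-numbered pools were handled together is not stated in the labels, and these correlations cannot settle it. With the replicate block, 0 members and 0 of 24010 genes were called in any comparison. When genes under the median intensity were dropped as well, 2, 4 and 4 of 28 members were called for I-BET151, JQ1 and their mean. This setting was chosen after seeing the data. Of its 12005 genes, 411, 818 and 1003 rose and 694, 1161 and 1302 fell, so the called share of members was below that of all genes each time. With 1 array left out, with or without genes below the median, 0 to 3, 0 to 4 and 0 to 5 were called, beside 0, 2 and 4, and the lone array of a group is then assumed to vary like the others. JQ1 against I-BET151 gave 0 in every setting. The growth-promoting median moved from 0.0354 to 0.0869 under I-BET151 when arrays were centred, and from 0.0429 to 0.1077 under JQ1, or -0.0298 with repeated quantile normalization. The growth-limiting median moved from 0.0905 to 0.142 and 0.038 under I-BET151 in those settings, and from 0.0811 to 0.1459 and 0.0405 under JQ1, or 0.1057 without genes below the median. With 1 array left out, the growth-promoting medians ran from -0.0014 to 0.0998 and from -0.0018 to 0.0512, and the growth-limiting ones from 0.0444 to 0.1214 and from 0.0646 to 0.1073. Dim rows, rounded to whole numbers, limit what can be said of members below 100, such as Phlda2.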
